A study of Mus musculus with 6 samples.

Results

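The retinoblastoma pocket proteins and the inhibitors of the cyclin-dependent kinases (CDKs) were examined in the transcriptome of mouse neural stem cells (NSCs). The members were the 10 genes *Rb1*, *Rbl1*, *Rbl2*, *Cdkn1a*, *Cdkn1b*, *Cdkn1c*, *Cdkn2a*, *Cdkn2b*, *Cdkn2c* and *Cdkn2d*, chosen by gene name from the 53379 rows of the table, where each name occurred in 1 row. NSCs, which self-renew in culture and can form neurons and glia, came from the cortex of Tbl1xr1 flox/flox embryos at E14.5. Both groups carried the floxed alleles, in which the fifth exon of *Tbl1xr1*, a subunit of the NCOR corepressor complex, is flanked by LoxP sites. The control cells received a lentivirus with GFP only (libraries 1, 1_1 and 2) and the others a lentivirus with Cre-GFP (libraries 2, 2_2 and 3), and GFP-positive cells were sorted before RNA-seq. All values of the groups therefore describe infected and sorted cells in culture, and which embryo or culture each library came from is not given in the sources used here. Nor do the sources say whether a shared number in a library name pairs libraries across the groups, and no pairing was assumed. The p-values measure only the spread between these libraries, which may be technical, and an effect of Cre cannot be told apart from a difference between cultures.

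The number of reads on genes ran from 7510615 to 11161497 in the 3 control libraries and from 11893230 to 14828100 in the 3 libraries labelled Cre. *Tbl1xr1* itself had 2522, 2190 and 2721 normalized counts (reads divided by 1 size factor per library) in control and 3774, 3463 and 2905 after Cre. This is a log2 difference of 0.45 with a standard error (SE) of 0.14 and an adjusted p of 0.06 (limma, Benjamini-Hochberg over all genes tested). A count over the whole gene includes the exons outside the floxed one and does not check the deletion. The study reports that the sorted cells were checked by PCR for genotype. It also reports loss of *Tbl1xr1* mRNA by RT-qPCR and of the protein by Western blot. As the values used here do not show the deletion, the group is called the libraries labelled Cre throughout. Of the NSC markers, *Nes* (3124 to 7011), *Sox2* (5359 to 11374) and *Vim* (9606 to 13468) were abundant in all 6 libraries, although *Nes* was lower in the libraries labelled Cre. Markers of endothelial cells and of fibroblasts were scarce, with summed values of at most 39.5 and 20.6 in any library. The endothelial sum was 22.7 to 39.5 in control and 11.1 to 13.4 in the libraries labelled Cre. Of 5 microglia markers *Csf1r* alone (154 to 264) exceeded 2.69.

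The pocket proteins RB (*Rb1*), p107 (*Rbl1*) and p130 (*Rbl2*) bind E2F transcription factors and hold back the genes needed for DNA replication. Cyclin D with CDK4 or CDK6, and then cyclin E with CDK2, phosphorylate the pocket proteins and release E2F, which lets the cell pass from G1 into S phase. CDK inhibitors work against this step: the INK4 proteins (*Cdkn2a* to *Cdkn2d*) bind CDK4 and CDK6, and the Cip/Kip proteins (*Cdkn1a* to *Cdkn1c*) bind a wider range of cyclin and CDK complexes. In the developing cortex these proteins help to set when progenitors leave the cell cycle.

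All 10 members passed the filter of a mean normalized count of at least 10. *Cdkn1a* was the only member past the threshold, an adjusted p of 0.05, and it was lower in the libraries labelled Cre. Thus 1 of the 10 was called lower, where 5.22% of the 14840 genes tested were called lower, and 0 were called higher, where 4.74% of all genes were (9.96% in either direction). At an unadjusted p under 0.05, 1 member was higher (*Rbl2*) and 2 were lower (*Rbl1* and *Cdkn1a*), where 12.2% and 13.2% of all genes were. The values of the groups did not overlap for 2 members, *Rbl1* and *Cdkn1a*, both lower, and for 30.3% of all genes (15.5% lower and 14.7% higher). The log2 fold change was positive for 4 members and negative for 6, with a median of -0.09 against -0.001 over all genes tested. Its median size without sign was 0.25 over the members and 0.26 over all genes.

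**Figure D1:**
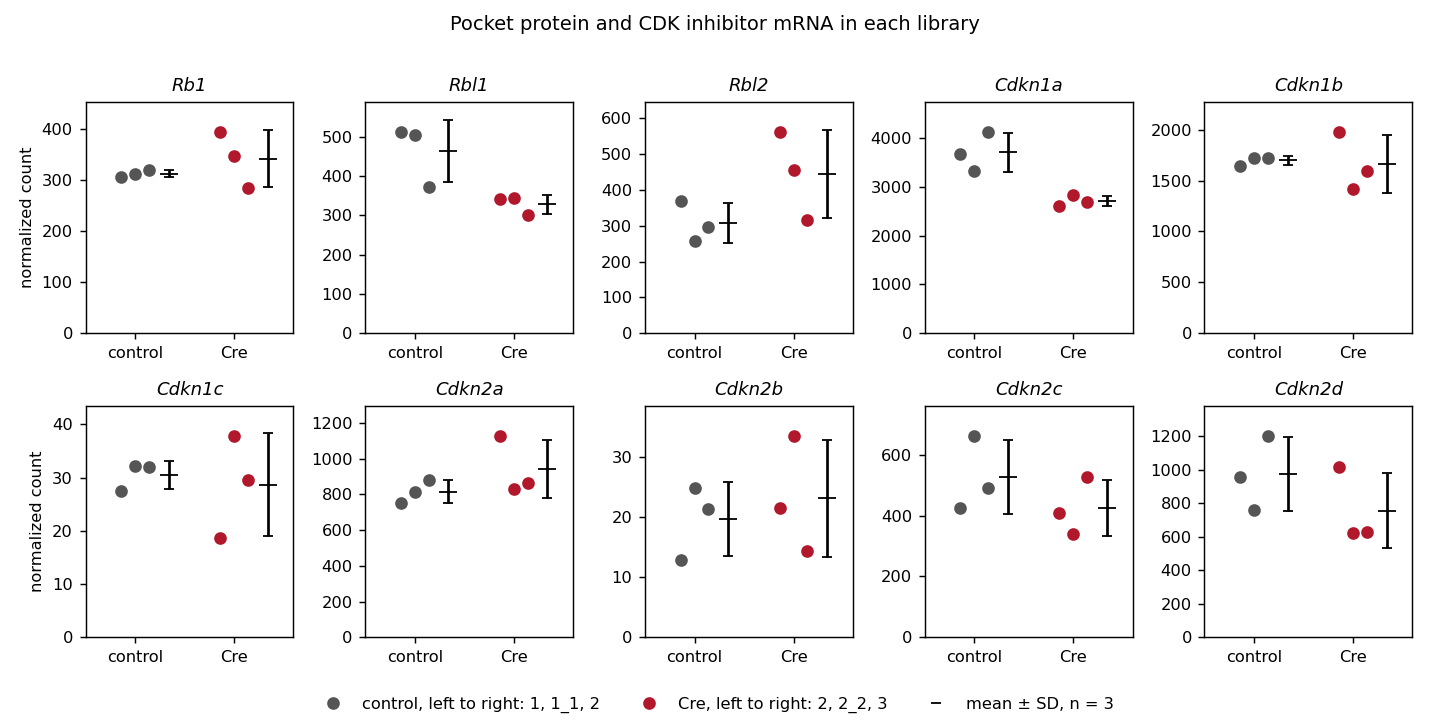
Normalized count (vertical axis, from 0) of each of the 10 members in the 3 control libraries (grey, left to right 1, 1_1 and 2) and the 3 libraries labelled Cre (red, left to right 2, 2_2 and 3), with the mean and SD of each group in black. The groups do not overlap for Rbl1 and Cdkn1a, and library 2 labelled Cre is the highest of all 6 for Rb1, Rbl2, Cdkn1b and Cdkn2a.

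Among the pocket proteins, *Rbl1* and *Rbl2* leaned in opposite directions and *Rb1* differed little, and none of the 3 passed the threshold. *Rbl1* (chr2:157145893-157204534, GRCm38.p6) encodes p107, which is itself made mainly in dividing cells. It had 512, 503 and 372 normalized counts in control and 340.0, 343 and 299.9 in the libraries labelled Cre. The groups did not overlap, and control library 2 lay nearest to the lower group. The means were 462 ± 78.4 and 328 ± 24.2 (SD, n = 3 each). On the log2 scale *Rbl1* differed by -0.48 (SE 0.16, unadjusted p = 0.0103), with an adjusted p of 0.077. Across 17 alternative analyses the direction stayed negative, from -0.63 to -0.40, and the adjusted p ran from 0.0534 to 0.286, so *Rbl1* passed the threshold in none of them.

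*Rbl2* (chr8:91070057-91123844) encodes p130, the pocket protein typical of cells that have stopped dividing. Its normalized counts were 369, 259 and 297 in control and 562, 456 and 316 in the libraries labelled Cre. Libraries 2 and 2_2 labelled Cre lay above all controls, while library 3 labelled Cre fell inside the control range. Means of 308 ± 55.8 and 445 ± 124 (SD, n = 3 each) gave a log2 difference of 0.50 (SE 0.21, unadjusted p = 0.0356, adjusted p = 0.16). Without library 3 labelled Cre the difference was 0.73 with an adjusted p of 0.0274, the only one of 17 alternatives that passed the threshold, and the adjusted p over all of them ran from 0.0274 to 0.398. The last exons of *Rbl2* run into those of *Aktip* on the opposite strand, and in the GENCODE M1 gene models 693 bases, 9.95% of the exon bases of *Rbl2*, are shared. *Aktip*, whose protein takes part in vesicle transport, had 371, 332 and 433 normalized counts in control and 625, 560 and 561 in the libraries labelled Cre. *Aktip* rose by 0.62 on the log2 scale (SE 0.14, adjusted p = 0.0183), a call kept in 12 of 17 alternatives and lost without control 1 or 1_1 or library 2_2 labelled Cre. Whether reads were counted by strand is not given in the sources used here, so those of the shared bases cannot be assigned to either gene, and the value of *Rbl2* is uncertain to that extent.

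*Rb1* (chr14:73192858-73325951), the founding member of the family, had 307, 313 and 320.1 normalized counts in control and 395, 348 and 286 in the libraries labelled Cre. The coefficient of variation of the 3 controls was 2.02%. The libraries labelled Cre lay on both sides of the controls, with a coefficient of 16.1%. The log2 difference was 0.12 (95% interval -0.22 to 0.45, adjusted p = 0.687). *Rb1* shares 408 exon bases, 6.78% of its exons, with *Lpar6*, a gene inside it on the opposite strand, which had a log2 difference of 0.07 (adjusted p = 0.814).

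**Figure D2:**
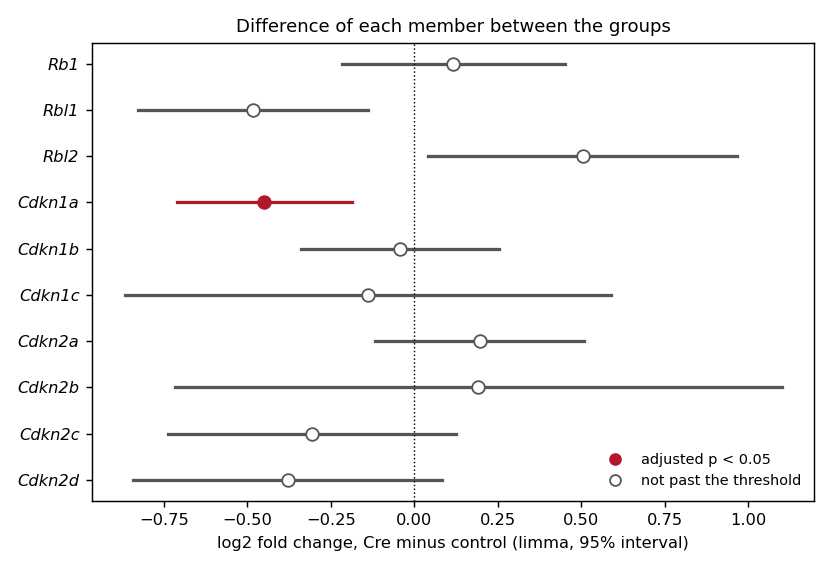
Log2 fold change of each member, libraries labelled Cre minus control, from limma (points) with its 95% interval (lines). The filled red point marks Cdkn1a, the only member with an adjusted p under 0.05. The intervals of Rbl1 and Rbl2 lie on opposite sides of 0 but neither passed the adjusted threshold.

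Because *Rbl1* and *Rbl2* leaned in opposite directions, the make-up of the pocket protein mRNA was computed within each library, per kb of exon. This measure was chosen after the values of its members had been seen and is given without a test. The uncertainty of *Rbl2* from the bases shared with *Aktip* carries over to it, and in library 3 labelled Cre *Rbl2* itself lay within the control range. *Rbl1* made up 45.1, 48.5 and 39.3% of the summed pocket protein level in control and 27.9, 31.7 and 35.0% in the libraries labelled Cre. The share of *Rbl2* was 28.0, 21.5 and 27.0% in control and 39.7, 36.3 and 31.8% in the libraries labelled Cre. Neither share overlapped between the groups, while that of *Rb1* lay between 27.0 and 33.7% in all 6 libraries. The ratio of *Rbl2* to *Rbl1* was 0.620, 0.443 and 0.688 in control and 1.42, 1.14 and 0.907 in the libraries labelled Cre, with means of 0.584 ± 0.127 and 1.16 ± 0.259 (SD, n = 3 each). The mean of the summed level of the family per kb was nearly the same, 174 ± 15.8 for control against 176 ± 30.5 (SD, n = 3 each) for the libraries labelled Cre. By library the sum was 190, 173 and 158 in control. In the libraries labelled Cre it was 203, 181 and 143, which reached above and below all controls.

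**Figure D3:**
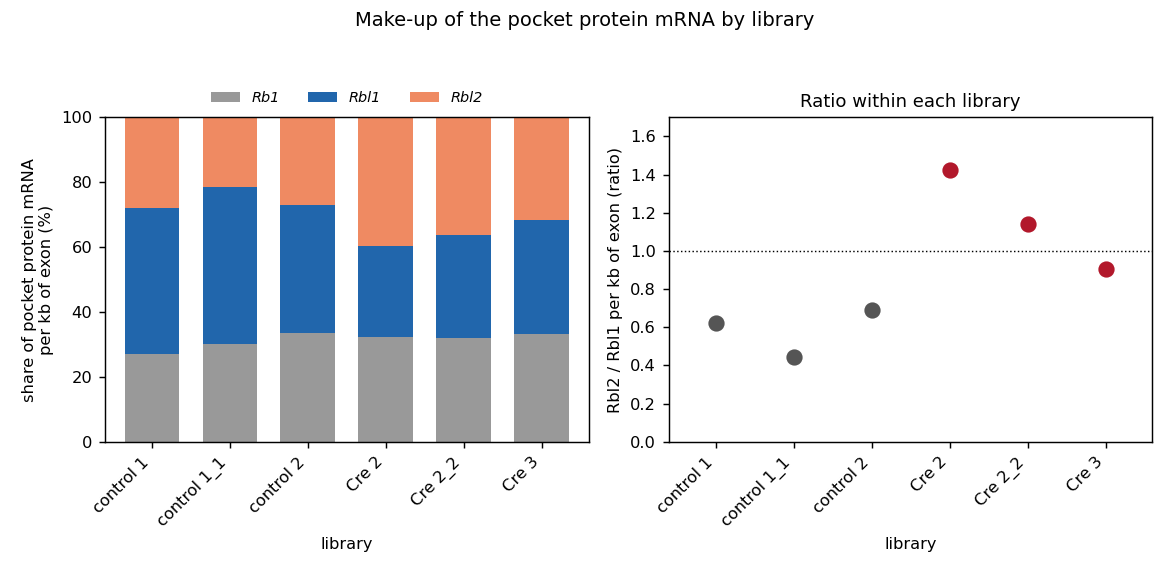
Left, share of Rb1, Rbl1 and Rbl2 in the summed pocket protein level of each library, in % of normalized counts per kb of exon. Right, ratio of Rbl2 to Rbl1 per kb of exon in each library, with a dotted line where both are equal. The 3 controls lie between 0.443 and 0.688 and the 3 libraries labelled Cre between 0.907 and 1.42.

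Promoter sequences were available in the RefSeq table (GRCm38.p6) for 8 of the 10 members, with 11 start sites. They are shown for *Rbl1* and *Rbl2*, whose levels leaned apart, and for both start sites of *Cdkn1a*, the member that fell. Each run is the 250 bases before the start site, 5′ to 3′ on the strand of the gene. Capitals mark matches, on either strand, to short strings known from cell cycle and p53 target promoters: E2F sites (TTTCGCGC, TTTGGCGC or TTTCCCGC), the GC box (GGGCGG), the cell cycle homology region or CHR (TTTGAA) and the p53 core pair (2 copies of CATG with 6 bases between them).
Rbl1 chr2:157204535-157204784, minus strand: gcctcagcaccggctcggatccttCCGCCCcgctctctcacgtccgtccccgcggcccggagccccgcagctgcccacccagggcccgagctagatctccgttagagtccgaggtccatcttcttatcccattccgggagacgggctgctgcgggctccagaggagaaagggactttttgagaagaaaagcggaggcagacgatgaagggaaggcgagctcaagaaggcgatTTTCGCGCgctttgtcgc
Rbl2 chr8:91069807-91070056, plus strand: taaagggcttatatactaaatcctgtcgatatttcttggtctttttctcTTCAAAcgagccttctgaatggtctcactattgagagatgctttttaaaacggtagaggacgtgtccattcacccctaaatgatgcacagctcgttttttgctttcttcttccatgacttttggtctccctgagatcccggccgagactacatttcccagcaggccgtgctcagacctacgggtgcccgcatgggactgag
Cdkn1a upstream start site chr17:29090729-29090978, plus strand: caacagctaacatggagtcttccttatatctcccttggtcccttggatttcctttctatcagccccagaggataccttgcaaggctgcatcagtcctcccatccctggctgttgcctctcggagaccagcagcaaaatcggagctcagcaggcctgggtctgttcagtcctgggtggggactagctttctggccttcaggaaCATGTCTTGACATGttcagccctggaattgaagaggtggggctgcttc
Cdkn1a downstream start site chr17:29093519-29093768, plus strand: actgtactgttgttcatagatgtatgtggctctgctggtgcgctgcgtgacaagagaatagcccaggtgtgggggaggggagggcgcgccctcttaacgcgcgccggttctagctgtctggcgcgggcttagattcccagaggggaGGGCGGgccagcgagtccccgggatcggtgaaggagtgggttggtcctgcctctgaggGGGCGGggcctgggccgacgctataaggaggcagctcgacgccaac

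In these windows *Rbl1* held the E2F string TTTCGCGC with its first base 18 bases before the start site, and a GC box 226 bases before it. *Rbl2* held no E2F string and had a CHR string 201 bases before its start site. The upstream start site of *Cdkn1a* held the p53 core pair, 48 bases before it, and the downstream one held 2 GC boxes. Windows of 300 bases, which add the first 50 transcribed bases, were compared over all genes. An E2F string lay in 2 of the 11 member promoters (*Rbl1* and one of *Cdkn2a*) and in 1.84% of all 32851 promoters, and the p53 core pair in 1 of the 11 and in 0.712% of all. A GC box lay in 9 of the 11 and in 35.7% of all, and a CHR string in 2 of the 11 (*Rbl2* and *Cdkn2b*) and in 17.9%. No match of one motif overlapped a match of another in the member promoters. A match is a description of the letters and not a bound site.

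Of the Cip/Kip inhibitors, *Cdkn1a* fell in the libraries labelled Cre, while *Cdkn1b* and *Cdkn1c* had small differences within the spread of the libraries. *Cdkn1a* (chr17:29090979-29100722) encodes p21, which stops the cell cycle in G1 and is a classical target of p53. It had 3675, 3323 and 4126 normalized counts in control and 2612, 2825 and 2683 in the libraries labelled Cre. All 3 libraries labelled Cre lay below all controls and close to each other. The mean fell by 27.0%, from 3708 ± 402 to 2706 ± 108 (SD, n = 3 each), with a log2 fold change of -0.45 (SE 0.12, adjusted p = 0.037). The exact two-sided permutation test of the means gave p = 0.1, the smallest p that 3 libraries against 3 can give. The direction was negative in all 17 alternatives, from -0.53 to -0.37, but the adjusted p ran from 0.02 to 0.153 and stayed under 0.05 in 8 of them. Leaving out any 1 of the 6 libraries ended the call except for library 2 labelled Cre (adjusted p = 0.0339). Without control 1, 1_1 or 2 the adjusted p was 0.143, 0.056 or 0.153, and without library 2_2 or 3 labelled Cre 0.0958 or 0.0537. DESeq2 (adjusted p = 0.02) and edgeR (0.0407) on the recovered reads kept it. Scaling to total counts (0.0523) and testing all genes without a filter (0.0588) did not. In limma the adjusted p was 0.0823 with control 1 and 1_1 averaged and 0.0829 with both pairs averaged. It was 0.0483 with Cre 2 and 2_2 averaged.

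*Cdkn1b* (chr6:134920401-134925525) encodes p27, which holds CDK2 inactive in progenitors that leave the cell cycle and is controlled largely through breakdown of the protein. It had 1646, 1723 and 1723 normalized counts in control and 1979, 1415 and 1594 in the libraries labelled Cre. The controls were almost equal, and the libraries labelled Cre spread to both sides of them. The log2 difference was -0.04 (95% interval -0.34 to 0.25, adjusted p = 0.874), and it turned to 0.065 without library 2_2 labelled Cre.

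*Cdkn1c* (chr7:143458339-143461059) encodes p57 and lies in an imprinted cluster, where mainly one parental copy is used. It was scarce, with 27.5, 32.2 and 32.0 normalized counts in control and 18.7, 37.9 and 29.5 in the libraries labelled Cre, from 22 to 44 reads per library. The libraries labelled Cre lay on both sides of the controls. The log2 difference was -0.14 (95% interval -0.87 to 0.59, adjusted p = 0.835), an interval too wide to show a difference of this size, and it was 0.13 without library 2 labelled Cre. *Kcnq1ot1*, the long RNA of the same imprinted cluster, had 585, 603 and 611 normalized counts in control and 801, 720 and 599 in the libraries labelled Cre, and did not pass the test (log2 difference 0.23, adjusted p = 0.328).

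None of the 4 INK4 inhibitors passed the test, and the groups overlapped for each of them. *Cdkn2a* (chr4:89274473-89294619) encodes both p16 and, from another first exon, p19ARF, which protects p53 from MDM2. The counts are per gene and do not separate the transcripts. Its normalized counts were 754, 810.4 and 880.2 in control and 1128, 829 and 865 in the libraries labelled Cre. Only library 2 labelled Cre lay above the controls, and the log2 difference was 0.20 (95% interval -0.12 to 0.51, adjusted p = 0.43). *Cdkn2b* (chr4:89306289-89311032), the neighbouring gene for p15, had 12.8, 24.9 and 21.3 normalized counts in control and 21.5, 33.6 and 14.3 in the libraries labelled Cre, from 14 to 39 reads per library. At this depth its log2 difference of 0.19 had a 95% interval from -0.72 to 1.10 (adjusted p = 0.817), and a difference was not detectable.

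*Cdkn2c* (chr4:109660876-109666756) encodes p18, which is present in dividing neural progenitors. It had 426, 663 and 491 normalized counts in control and 409, 341 and 526 in the libraries labelled Cre, with a log2 difference of -0.31 (95% interval -0.74 to 0.12, adjusted p = 0.362). Its highest control, 1_1, stood above the other 5 libraries, which mingled. *Cdkn2d* (chr9:21288459-21291421) encodes p19INK4D, a different protein from p19ARF, which appears as neural progenitors become postmitotic. Its normalized counts were 958, 761 and 1202 in control and 1015, 622 and 629 in the libraries labelled Cre. Libraries 2_2 and 3 labelled Cre lay below all controls, while library 2 labelled Cre lay within their range. The log2 difference was -0.38 (95% interval -0.84 to 0.08, adjusted p = 0.29). Without library 2 labelled Cre it came to -0.61 and passed (adjusted p = 0.0243), and the adjusted p over the 17 alternatives ran from 0.0243 to 0.648.

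**Figure D4:**
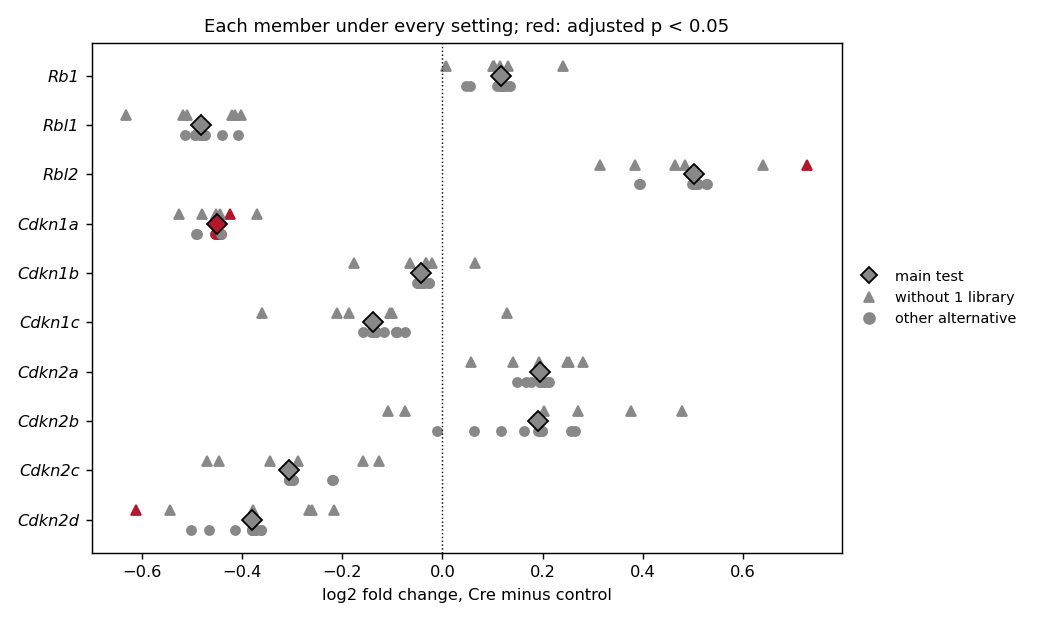
Log2 fold change of each member under the main test (diamonds), without each library in turn (triangles) and under the other alternatives (circles), in red where the adjusted p is under 0.05. Cdkn1a keeps its direction at every setting but not its call, and Rbl2 and Cdkn2d pass the threshold at 1 setting each.

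Library 2 labelled Cre, the most deeply sequenced with 14828100 reads, had the highest value of all 6 for *Rb1*, *Rbl2*, *Cdkn1b* and *Cdkn2a* and the lowest for *Cdkn1a* and *Cdkn1c*. It also stood apart from libraries 2_2 and 3 labelled Cre in *Cdk1*, the mitotic kinase, with 2530 normalized counts against 1285 and 1173. The controls had 2598, 1991 and 3025, so for *Cdk1* library 2 labelled Cre lay within the control range. In *Hes1*, a Notch target that represses *Cdkn1b* and *Cdkn1c* in some tissues, it had 1200.2 against 558 and 399 in libraries 2_2 and 3 labelled Cre. The part of library 2 labelled Cre in the member values was measured only by leaving it out: 2 members were then called lower, *Cdkn1a* and *Cdkn2d*. Over all 14840 genes tested, 1208 were then called lower, against 774 with all 6 libraries.

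To compare the members with each other, normalized counts were divided by exon length. In control the order of the mean levels per kb was *Cdkn1a* (1668), *Cdkn2d* (766), *Cdkn2a* (697), *Cdkn1b* (373), *Cdkn2c* (196), *Rbl1* (77.2), *Rb1* (52.1), *Rbl2* (44.3), *Cdkn1c* (15.8) and *Cdkn2b* (14.1). Inhibitor mRNA thus exceeded pocket protein mRNA, with p57 and p15 as the rare exceptions. Neighbours in that order whose control values overlapped were *Cdkn2d* with *Cdkn2a*, *Rb1* with *Rbl2*, and *Cdkn1c* with *Cdkn2b*. In the libraries labelled Cre *Cdkn1a* was still first (1217 per kb), followed by *Cdkn2a* (804) and *Cdkn2d* (594), whose ranges overlapped. The pocket proteins there were *Rbl2* at 63.9, *Rb1* at 57.0 and *Rbl1* at 54.7 per kb, with overlapping neighbours, so *Rbl1* went from the first to the last of the 3 in mean level.

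The summed Cip/Kip level per kb was 2057 ± 182 for control against 1597 ± 23.7 for the libraries labelled Cre, while the INK4 sum was 1673 ± 193 and 1573 ± 312 (SD, n = 3 each). *Cdkn1a* made up 46.0, 43.4 and 44.8% of the summed inhibitor level in control and 33.1, 43.1 and 40.1% in the libraries labelled Cre. Its share was lower in every library labelled Cre, but for library 2_2 the distance to the lowest control was small. The ratio of *Cdkn1a* to *Cdkn1b* per kb overlapped between the groups (4.57, 3.95 and 4.90 against 2.703, 4.09 and 3.45). These sums and ratios were also chosen after the values had been seen.

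The other genes of the pathway were examined as 6 lists with 76 names, of which 75 were in the table and 73 were tested. Of these, 3 were called higher and 8 lower, where 4.74% and 5.22% of all genes tested were. Of the 73 log2 differences 50 were negative. Their median was -0.12, against -0.001 over all genes tested. For the E2F and DP genes, the partners that pocket proteins hold, 1 of 10 was called. *E2f1*, an activator of S phase genes, had 477, 396 and 540.1 normalized counts in control and 222, 170.5 and 216 in the libraries labelled Cre. Each of the latter was far below the controls, and the gene fell by 1.21 on the log2 scale (SE 0.17, adjusted p = 0.00144), under the threshold in all 17 alternatives.

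Of the 11 cyclins and kinases on which the inhibitors act, 1 was called lower and 1 higher, and 9 of the 11 differences were negative. *Ccnd1*, a cyclin D, which starts phosphorylation of RB, had 20874, 16690.5 and 20483 normalized counts in control. In the libraries labelled Cre it had 13070, 14528 and 9165 (log2 fold change -0.68, SE 0.18, adjusted p = 0.0376). The values did not overlap, and the call was kept in 11 of 17 alternatives. The cyclin D gene *Ccnd2* was more abundant, with 36191 to 37558 normalized counts in control against 31961 to 44907. It did not pass the test (log2 difference 0.07, adjusted p = 0.837), and neither did *Ccnd3* (log2 difference -0.36, adjusted p = 0.17). *Cdk6*, a partner of cyclin D and a target of all INK4 proteins, had 31.2, 39.5 and 41.3 normalized counts in control and 109, 108 and 80.6 in the libraries labelled Cre. It rose in all 3 libraries (log2 fold change 1.39, SE 0.24, adjusted p = 0.00503) and passed in all 17 alternatives, from a low level compared with the 1999 to 2090 normalized counts of its close relative *Cdk4* in control, which did not pass the test (log2 difference -0.07, adjusted p = 0.812).

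Pocket proteins p107 and p130 also act in the DREAM complex, which silences cell cycle genes in resting cells through the MuvB core. Of 6 genes of this list 1 was called: *Mybl2*, which replaces the pocket protein on MuvB in dividing cells, had 249, 222 and 189 normalized counts in control and 157, 111 and 135 in the libraries labelled Cre (log2 fold change -0.71, SE 0.19, adjusted p = 0.0353). Of the 12 tested genes for turnover of the inhibitors and for CDK phosphatases, 2 were called, both lower. *Skp2*, the receptor that marks p27 and p21 for breakdown, had 610.3, 565 and 595 normalized counts in control and 418, 476 and 350.1 in the libraries labelled Cre (log2 fold change -0.52, SE 0.14, adjusted p = 0.043). *Dtl*, which directs p21 to the CUL4 ligase in S phase, had 599, 515 and 493 normalized counts in control and 353, 411 and 354 in the libraries labelled Cre (log2 fold change -0.52, SE 0.14, adjusted p = 0.036). For all 3 genes the groups did not overlap, and each call was kept in 10 of 17 alternatives. The levels are of mRNA, and the turnover of the p21 and p27 proteins was not measured here.

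**Figure D5:**
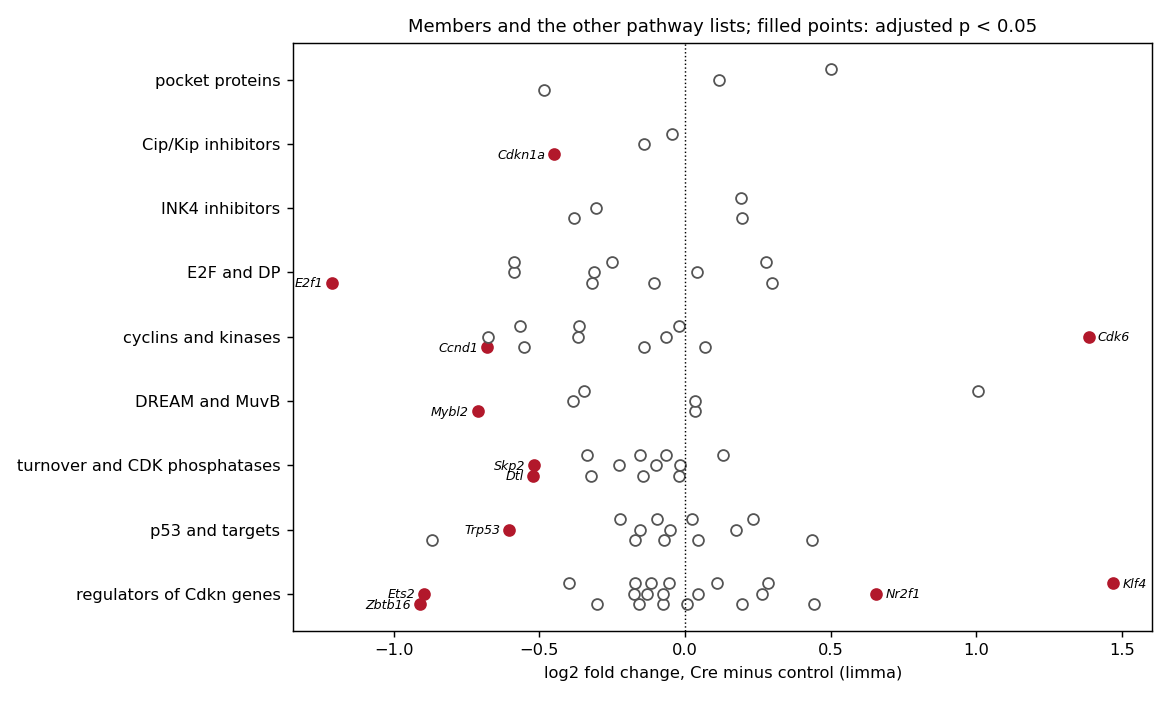
Log2 fold change, libraries labelled Cre minus control, of the members (upper 3 lists) and of the other pathway genes tested, 1 point per gene. Filled and named points have an adjusted p under 0.05: 1 member and 11 other genes, of which Cdk6, Klf4 and Nr2f1 were higher and the remaining 8 lower.

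Since *Cdkn1a* is a target of p53, the gene for p53 and 12 other targets were listed. *Trp53* had 359, 335 and 367 normalized counts in control and 244, 244 and 209.5 in the libraries labelled Cre. It fell in all 3 libraries by 0.60 on the log2 scale (SE 0.14, adjusted p = 0.0217), a call kept in 11 of 17 alternatives. None of the 12 targets passed the test. The largest difference was that of *Bbc3*, which promotes cell death (log2 difference -0.87, adjusted p = 0.0913), and *Mdm2*, the ligase for p53, had a log2 difference of -0.07 (adjusted p = 0.803). Over the list of 13, 5 differences were positive and 8 negative, with a median of -0.07.

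Of 23 regulators known to act on *Cdkn* genes, 21 were tested, 2 were called higher and 2 lower. *Klf4*, a zinc finger factor that can activate *Cdkn1a*, had 744, 998 and 832 normalized counts in control and 1609, 2395 and 3425 in the libraries labelled Cre (log2 fold change 1.47, SE 0.23, adjusted p = 0.00283). *Nr2f1*, a nuclear receptor of cortical patterning, had 1910, 2070 and 2283 normalized counts in control and 3286, 3483 and 3091 in the libraries labelled Cre (log2 fold change 0.66, SE 0.12, adjusted p = 0.00569). Both rose without overlap and passed in all 17 alternatives. *Ets2*, which can activate *Cdkn2a*, fell by 0.89 on the log2 scale (SE 0.20, adjusted p = 0.0175), with 289 to 391 normalized counts in control against 135 to 212. *Zbtb16*, a repressor with zinc fingers, fell by 0.91 (SE 0.22, adjusted p = 0.0241), with 84.4 to 105 normalized counts in control against 45.6 to 57.3. The call of *Ets2* was kept in 14 of 17 alternatives and that of *Zbtb16* in 11. The Polycomb genes *Bmi1* and *Ezh2*, which silence the *Cdkn2a* locus in stem cells, had log2 differences of -0.30 (adjusted p = 0.311) and -0.05 (adjusted p = 0.807), and did not pass.

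Of the 25 genes beside the members in the genome, 18 were tested, 3 were called higher and 1 lower (4.74% and 5.22% over all genes tested). *Dmrta1*, a transcription factor gene 377 kb from *Cdkn2b*, had 0.918, 4.39 and 6.67 normalized counts in control and 42.2, 23.2 and 29.5 in the libraries labelled Cre. It rose from near the limit of detection (log2 fold change 2.89, SE 0.57, adjusted p = 0.00954), while *Cdkn2a* and *Cdkn2b* beside it did not pass the test, and neither did *Mtap* on the other side of them (log2 difference -0.28, adjusted p = 0.286). *Itm2b*, which encodes a membrane protein and lies 36.3 kb from *Rb1*, rose, with 1655 to 1938 normalized counts in control against 2213 to 2622 (log2 fold change 0.46, SE 0.12, adjusted p = 0.0347), a call kept in 10 of 17 alternatives. *Samhd1*, which breaks down nucleotides for DNA synthesis and lies 10.8 kb from *Rbl1*, had 388, 399 and 397 normalized counts in control and 278, 295 and 287 in the libraries labelled Cre. It fell by 0.46 on the log2 scale (SE 0.13, adjusted p = 0.0454), a call kept in 5 of 17 alternatives. The third gene called higher was *Aktip*, described with *Rbl2*.

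The genes whose pattern over the 6 libraries was most like that of *Cdkn1a* were *Snhg15* (Pearson r = 0.998), *Psmb1* (0.995) and *Ndufb9* (0.994), on log2 values. These are the highest r among 14840 genes over 6 points, which share the group difference, and are given as a description. Mean normalized counts (control, then libraries labelled Cre) were 217 and 153 for *Snhg15*, 1992 and 1632 for *Psmb1*, and 2583 and 1955 for *Ndufb9*.

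Markers of the NSCs and of other cell states were set beside all genes tested, of which 4.74% were called higher and 5.22% lower. For 30.3% of all genes the groups did not overlap. Of 10 NSC markers 7 differences were positive and 3 negative, and the groups did not overlap for 5. *Nes* alone was called, and fell by 0.85 on the log2 scale (SE 0.14, adjusted p = 0.00384). Of 6 proliferation markers, all 6 were lower on average and 1 (*Mcm2*) was called lower, and their summed level was 25039 to 27124 normalized counts in control and 19743 to 22421 in the libraries labelled Cre. Of 7 astrocyte markers tested, 3 were called higher (summed level 9036 to 10354 and 11838 to 12125), and 2 of the 7 had a negative difference, the larger that of *Aldh1l1* (log2 difference -1.65, adjusted p = 0.065). Of 6 oligodendrocyte lineage markers 3 were called higher (12488 to 14404 and 17236 to 19639). The astrocyte marker *Gfap* stayed at or below 10.3 normalized counts and the oligodendrocyte marker *Mog* at or below 4.39 in every library. None of 5 neuron markers was called, and *Stmn2* was at 0 throughout. The part of these cell states in the levels of *Cdkn1a* and *Rbl1* was not tested, and in bulk RNA fewer cells of a type cannot be told apart from less RNA per cell.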

How the data were processed

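RNA was extracted with Trizol, and libraries were made with the TruSeq RNA Library Prep Kit v2. The study's methods name TopHat, mm9, mm10 and DESeq2, whereas the submitters' processing notes name STAR 2.7, mm10 and DESeq2, and the counter, strand setting and annotation are not given in the sources used here. The authors deposited normalized counts per gene, a signal equal to reads divided by 1 size factor per library. The deposited columns of the authors' own comparison (fold changes, test scores and p-values) were not used. Of 53379 rows, 873 have no gene name and 1 with a missing value was left out. From the value of 1 read per library, 100% of values were whole reads (tolerance 0.001).

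limma 3.58.1 (R 4.3.3, lmFit, eBayes with trend) was fitted to log2(normalized count + 1) of the 14840 genes with a mean of at least 10, with Benjamini-Hochberg adjustment over all of them and a threshold of 0.05. On this scale the fold changes of scarce genes are understated. Alternatives were edgeR 4.0.16 and DESeq2 1.42.0 on recovered reads, pseudocounts of 0.5 and 5, no filter (27585 genes), a mean of at least 50 (11135 genes), TMM or total scaling, averaging of control 1 with 1_1, of Cre 2 with 2_2 or of both, an adjusted p under 0.1, and leaving out each library. Scripts were tested on simulated data. Exon lengths came from GENCODE M1 models (*Cdkn2d* matched by symbol) and include all annotated exons, so levels per kb are approximate. Coordinates and promoters came from RefSeq (GRCm38.p6). Named genes were all members, pathway genes and neighbours past the threshold (or the one with the largest difference of a list with none), *Tbl1xr1*, *Mtap*, *Kcnq1ot1* and the 3 genes most like each called member. *Rbl2*'s neighbours and the genes given for library 2 labelled Cre, *Cdk4*, *Bbc3*, *Mdm2*, *Bmi1*, *Ezh2* and *Lpar6*, and the markers, were added after values were seen. So were *Ccnd2* and *Ccnd3*. The members and lists were chosen with earlier results of these data known.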

Additional observations from a re-analysis of the deposited data

How the results depend on the processing

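Of 168 values of the 10 members under the alternatives, 152 kept their direction and side of the threshold, 9 lost the threshold (all *Cdkn1a*), 2 gained it and 5 turned in sign. The number of members called, 1 (lower), was 0 with no filter on low genes, with total count scaling, with control 1 and 1_1 averaged and with both pairs averaged, and 2 (both lower) at an adjusted p under 0.1. Leaving out 1 library gave from 0 to 2 called, 0 to 1 higher (*Rbl2*, without Cre 3) and 0 to 2 lower. The calls over all genes tested also changed when 1 library was left out and are given below. The turned signs were those of *Cdkn1b* (-0.18 to 0.065 without 1 library), *Cdkn1c* (-0.36 to 0.13) and *Cdkn2b* (-0.11 to 0.48, and -0.011 with both pairs averaged), none of which was called. Averaging leaves fewer samples, and no filter more genes tested. For the other cases the cause was not tested.

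The number of pathway genes called, 11 (8 lower), was 4 (1 lower) with control 1 and 1_1 averaged and 7 (4 lower) with both pairs averaged, and 13 were lower at an adjusted p under 0.1. These are counts and need not be of the same genes. Leaving out 1 library gave from 4 to 20 called, 3 to 6 higher and 1 to 14 lower. The 20 came without Cre 2, the 4 without control 1 or 1_1, 5 without control 2 and 7 without Cre 3. Over all 14840 genes tested, 1478 were called with all libraries. Without Cre 2, 2_2 or 3 the number was 2396, 724 or 1437, and without control 1, 1_1 or 2 it was 558, 704 or 643. It was 660 with control 1 and 1_1 averaged and 885 with both pairs averaged. Of 305 values of the 18 other genes named by rule, 237 kept their side, 66 lost the threshold, 2 gained it (*Tbl1xr1*) and 0 turned. *Cdkn1c* and *Cdkn2b* have under 50 reads per library, which limits what can be seen of them. No paired analysis was possible because the groups share only 1 replicate number.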
